A study of Homo sapiens with 33 samples.

Results

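The adenine base editor miniABEmax-V82G with a guide to HEKsite2 was compared with green fluorescent protein (GFP) alone in HEK293T cells, by RNA sequencing of 3 libraries of each, which are 6 of the 33 libraries in the study. The libraries were taken by the construct, guide and replicate number in their names, and all 26475 genes of the count table entered, of which 14613 had enough reads to be tested. HEK293T is a human embryonic kidney line that is easily transfected. The study set out to describe an editor that changes both adenines and cytosines, and miniABEmax-V82G served in it as a control for adenine editing of DNA and RNA, with GFP as a negative control. The edited cells received a plasmid for miniABEmax-V82G joined to GFP by a self-cleaving peptide and a plasmid for the HEKsite2 guide. The control cells carried GFP and no guide. Cells of every group were transiently transfected and sorted for GFP between 36 and 40 h later, so each library holds cells that took up plasmid, and the 2 groups differ in the editor, the size of the expressed protein and the guide together, which cannot be told apart in this comparison. For that reason 3 libraries of a Cas9 nickase without deaminase (nCas9) with the same HEKsite2 guide, 3 of miniABEmax-V82G with a guide that targets RNF2 and 3 of ABEmax with the HEKsite2 guide are set beside it. The first editor is called V82G here, and with the HEKsite2 guide unless another guide is named.

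An adenine base editor joins a Cas9 nickase to a laboratory-evolved TadA, a bacterial enzyme that removes an amino group from adenine. ABEmax carries a wild-type TadA domain beside the evolved one, and miniABEmax lacks it; the substitution in the name V82G was made to reduce deamination of RNA away from the guide's target. Cells answer a load of foreign or misfolded protein with chaperones under the control of heat shock factor HSF1, and answer several stresses through phosphorylation of the initiation factor eIF2 and the transcription factor ATF4, the integrated stress response. Base editing itself was not measured here, since the table holds 1 read count per gene.

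Levels are in CPM, a gene's share of the reads in its library after scaling of library sizes. The V82G libraries held 8747696 to 9488923 counted reads and the GFP libraries 9681156 to 11200406. The deeper GFP libraries give slightly smaller counting error. Libraries of 1 group differed by more than sampling noise, so none was a copy of another. The labels do not say that replicates came from separate cultures. The p-values thus measure only the spread between libraries within groups, estimated over all 33 libraries fitted together. Of 6 markers of HEK293 cells none was at 0 in either group, and their summed level was 241 to 262 CPM in V82G libraries and 304 to 338 CPM in GFP libraries. Summed markers of liver ran from 1.20 to 2.30 CPM in V82G libraries and 0.661 to 1.39 CPM in GFP libraries, with 5 of 14 at 0 in V82G and 4 in GFP, APOC3 and FGA in both, and ALB at 1 count over the V82G libraries and 2 over the GFP libraries. Summed markers of blood cells were 3.15 to 3.79 CPM in V82G libraries and 2.07 to 2.49 CPM in GFP libraries, with 5 of 13 at 0 in each group, CD3E in both, and those of endothelium 0.946 to 1.61 CPM in V82G and 0.992 to 1.29 CPM in GFP, with 0 of 5 and 1 of 5 at 0. The 10 markers of mesenchymal cells summed to 106 to 115 CPM in V82G libraries and 114 to 139.7 CPM in GFP libraries, with none at 0.

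Many genes differed between V82G and GFP, mostly by small amounts. Once a change of 2-fold was asked for, genes higher in V82G far outnumbered lower ones. At an adjusted p under 0.05 from edgeR's quasi-likelihood test, with Benjamini-Hochberg adjustment over all tested genes, 5815 of 14613 genes differed between V82G and GFP, which is 39.8% of them. Of these 2923 were higher (20.0%) and 2892 lower (19.8%) in V82G, and the median log2 fold change of all tested genes was 0.00. Counts of list members higher or lower than GFP are to be read beside these 2 shares. At least 2-fold, 409 genes were higher (2.8%) and 79 lower (0.541%). Such a surplus was also found in nCas9 over the same GFP libraries, with 363 higher and 71 lower of 14613. In V82G with the RNF2 guide over GFP 584 were higher and 133 lower. The 3 libraries of one group lay wholly apart from those of the other in 7316 genes (50.1%), so a lack of overlap for a single gene is to be read beside that share. A surplus of 2-fold rises was counted above and below a cut on mean level. That mean includes the V82G libraries and those of other groups, so a gene near 0 in GFP can pass the cut. The split therefore cannot tell whether the surplus rested on genes weakly expressed in GFP. Among the 12818 genes whose mean log2 CPM over all 33 libraries was 1 or more, 245 were at least 2-fold higher and 40 at least 2-fold lower, and among the 1795 genes under that level 164 were higher and 39 lower. In bulk libraries a change in the RNA of each cell and a change in the share of cells that make it cannot be told apart.

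**Figure D1:**
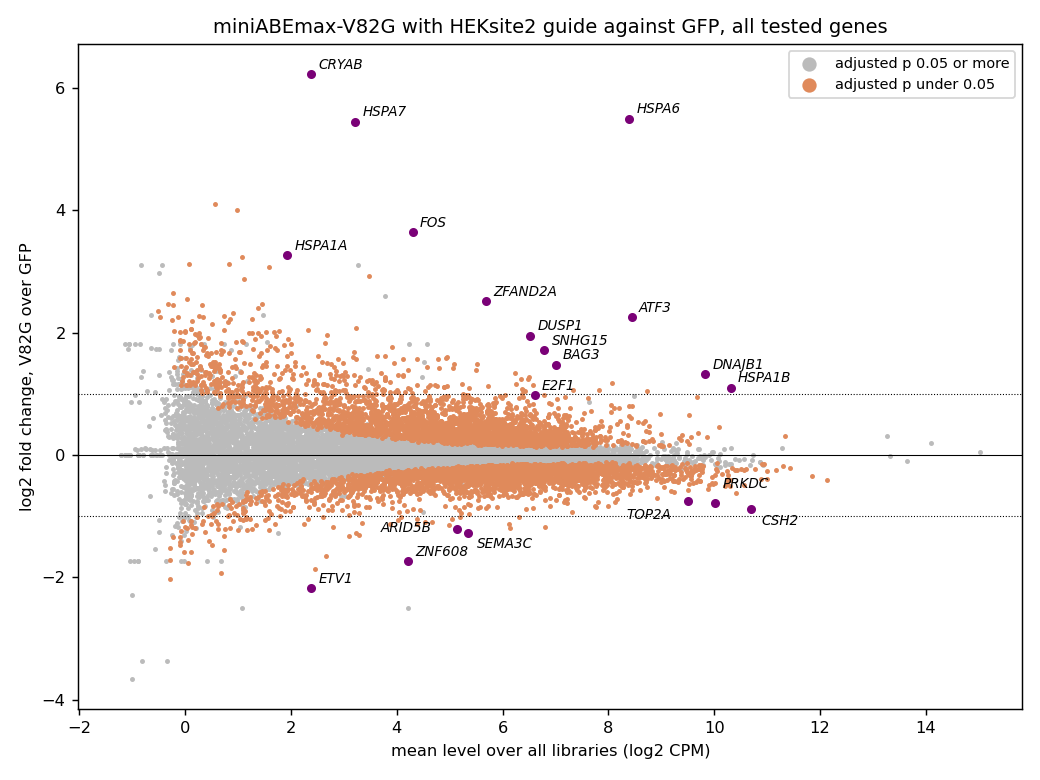
Each point is 1 of 14613 tested genes, with its mean level over all libraries in log2 CPM across and the log2 fold change of V82G over GFP up; orange points have an adjusted p under 0.05 and the dotted lines mark 2-fold. The named heat shock and stress genes lie above the upper line, and ETV1, ZNF608, SEMA3C and ARID5B lie under the lower one.

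Heat shock genes headed the 12 largest rises, which also held genes outside the stress lists. HSPA6, an HSP70 chaperone that is nearly silent in unstressed human cells and strongly induced by heat and misfolded protein, reached 170.0, 150.0 and 166 CPM in the 3 V82G libraries, against 3.09, 3.67 and 3.97 CPM in the GFP libraries. The groups lay far apart, and the fold change was 45.2 (log2 fold change 5.50, SE 0.17, adjusted p = 5.4e-26). Its gene occupies chr1:161524540-161526910 on the plus strand of GRCh38 in GENCODE 29. The 250 bases before its start are shown because they carry the binding pattern of HSF1, a heat shock element of 3 alternating units, searched on both strands as GAA, any 2 bases, TTC, any 2 bases, GAA; the match is in capitals and begins 74 bases before the start. The sequence is from RefSeq (GRCh38.p14, plus strand, chr1:161524290-161524539), and it was chosen after the values were seen.
HSPA6 promoter: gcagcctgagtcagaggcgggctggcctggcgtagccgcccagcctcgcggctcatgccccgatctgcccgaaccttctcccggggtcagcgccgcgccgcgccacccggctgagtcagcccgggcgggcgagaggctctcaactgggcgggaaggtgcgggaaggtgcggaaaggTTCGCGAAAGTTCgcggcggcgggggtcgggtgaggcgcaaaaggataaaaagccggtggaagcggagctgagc
HSPA7 (chr1:161606291-161608217), annotated as a pseudogene and a near copy of HSPA6, can take reads of HSPA6 and the counting rule is not given, so its value is uncertain. It had 97 counts over the V82G libraries and 2 over the GFP libraries, a ratio of 52.8 with a 95% exact counting interval from 14.2 to 442. CRYAB, alpha-B-crystallin, a small heat shock protein that holds unfolded proteins in solution, had 98 counts in V82G and 1 in GFP, a ratio of 107 with an interval from 18.7 to 4255 that covers counting error only. CRYAB (chr11:111908565-111923722, minus strand) overlaps HSPB2 and C11orf52 on the other strand, neither of which had enough reads to be tested.

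The chaperone genes HSPA1B, HSPA1A and HSPH1 rose, and the abundant constitutive HSPA8 fell. Of 13 HSP70 and HSP110 genes tested, 6 were higher and 1 lower in V82G, with a median log2 fold change of 0.29. HSPA1B, a heat-inducible HSP70, stood at 1428, 1306 and 1357 CPM in V82G libraries, against 631, 631 and 645 CPM in GFP libraries (log2 fold change 1.10, SE 0.06, adjusted p = 4.9e-18). The groups were far apart beside a spread of a few percent within each. HSPA1A, which encodes an almost identical protein from the neighbouring gene, was listed at 5.37, 4.63 and 3.91 CPM in V82G and 0.698, 0.376 and 0.331 CPM in GFP (3.26 on the log2 scale, SE 0.34). Reads cannot be divided safely between HSPA1A and HSPA1B, so the split between them is uncertain. HSPH1, an HSP110 that recharges HSP70 with nucleotide, rose by 0.95 (log2, SE 0.08, adjusted p = 7.7e-13). The lowest member was HSPA8, the constitutive HSP70, which fell to 2990.2, 2982 and 2859 CPM in V82G libraries, against 3623, 3307 and 3286 CPM in GFP libraries (log2 fold change -0.21, SE 0.07, adjusted p = 0.010); without GFP replicate 1 its adjusted p was 0.082.

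DNAJB1, the J-domain protein that hands clients to HSP70 during heat shock, had 734, 668 and 800.4 CPM in V82G libraries and 280.4, 301 and 299 CPM in GFP libraries (log2 fold change 1.32, SE 0.08, adjusted p = 1.3e-16). DNAJB5, a relative of DNAJB1, rose by 1.22 and DNAJC10, a disulfide reductase of the endoplasmic reticulum, fell by 0.35 on the log2 scale (adjusted p = 4.4e-10 and 9.0e-06). Over 18 J-domain genes 8 were higher and 2 lower (median 0.12); the 8 became 5 without the filter on low counts and without GFP replicate 2, GFP replicate 3, V82G replicate 1 or V82G replicate 2. BAG3, which links HSP70 to autophagy and small heat shock proteins, was at 114, 112 and 118 CPM in V82G and 40.7, 41 and 41.6 CPM in GFP, with no overlap (log2 fold change 1.48, SE 0.08, adjusted p = 1.7e-17). Among 10 tested small heat shock and BAG genes 6 were higher and none lower at this threshold (median 0.33), including HSPB1 (HSP27; 54.2 ± 3.19 CPM in V82G and 31.3 ± 3.06 CPM in GFP, SD, n = 3 each) and HSPB8, a partner of BAG3, at 5.35 ± 0.52 CPM in V82G and 2.19 ± 0.785 CPM in GFP.

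HSP90 and its helpers showed the same direction at smaller size: 8 of 15 were higher and 1 lower (median 0.25). CHORDC1, an HSP90-binding zinc protein, had 294, 317 and 308 CPM in V82G libraries and 187, 186 and 169.6 CPM in GFP libraries (log2 fold change 0.76, SE 0.07, adjusted p = 1.2e-11). AHSA1, which activates the ATPase of HSP90, rose by 0.48 and CACYBP, an HSP90-associated ubiquitin ligase adaptor, by 0.48 (log2, SE 0.07 and 0.06). Of the 10 chaperonin genes 2 passed the test, both higher, which is 20.0% of them as in all genes, and 1 did so without GFP replicate 2, GFP replicate 3 or V82G replicate 1; one was TCP1, a subunit of the cytosolic ring, with a log2 fold change of 0.30, and the list median was -0.01. ZFAND2A (AIRAP), a proteasome-binding protein induced by arsenite and by heat, belonged to no list and was 1 of the 12 largest rises, with 63.9, 54.8 and 68.5 CPM in V82G and 10.7, 10.7 and 11.3 CPM in GFP (log2 fold change 2.52, SE 0.11, adjusted p = 5.0e-21).

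**Figure D2:**
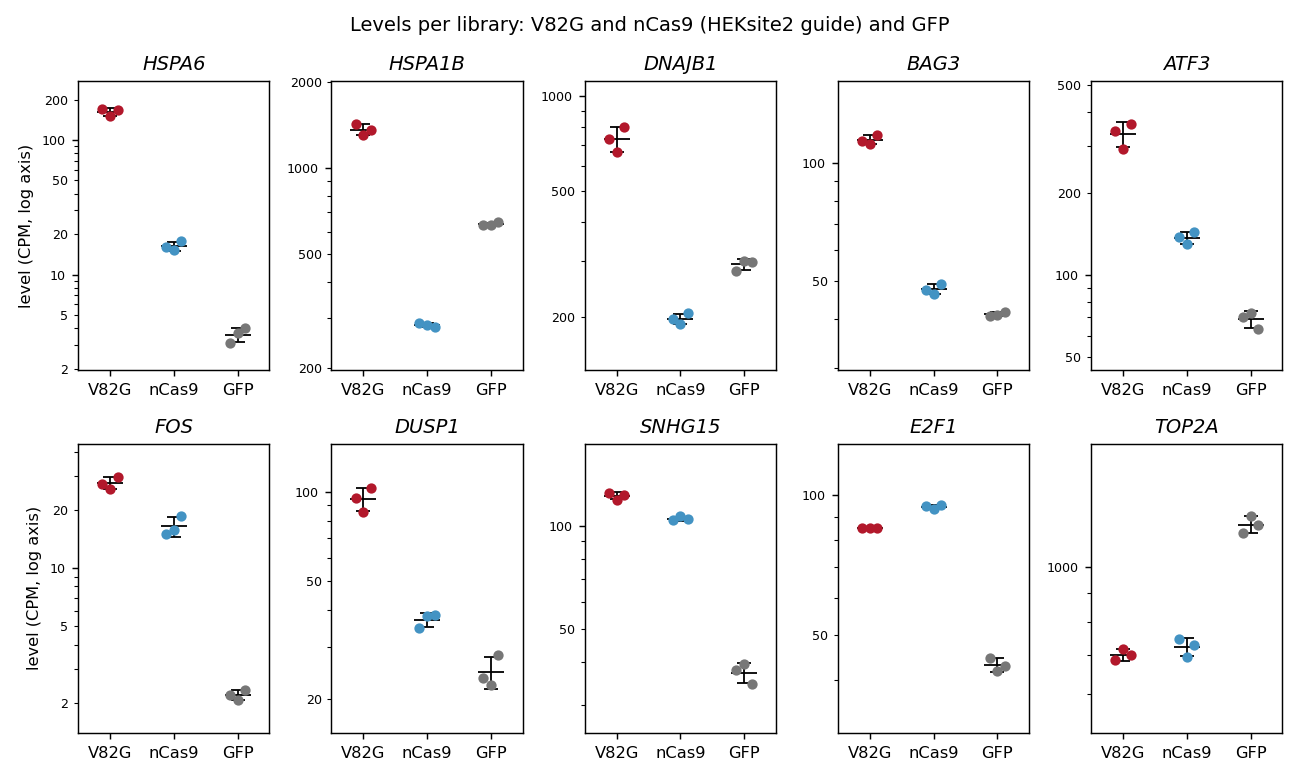
Points are the CPM of single libraries on a log axis for 10 genes in V82G, nCas9 and GFP, with the HEKsite2 guide in the first pair, and bars give the mean and SD of 3 libraries. HSPA6, HSPA1B, DNAJB1, BAG3, ATF3, FOS, DUSP1, SNHG15 and E2F1 lie higher in V82G than in GFP and TOP2A lower, while HSPA1B and DNAJB1 lie lower in nCas9 than in GFP.

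The heat shock element was found in promoters of genes that rose and of genes that did not. It occurs in 0.441% of 35116 RefSeq promoter windows of 250 bases. Among the 49 tested genes that have it, 13 were higher in V82G, 10 were lower and 26 did not pass the test. Among all genes tested 20.0% were higher and 19.8% lower. The stretches around the matches of CHORDC1, which rose, and HSPA8, which fell, are shown beside each other because they differ in direction; each is read on the minus strand of GRCh38.p14 with the matched letters in capitals.
CHORDC1, chr11:90223084-90223112: ccgGAAAATTCGCGAAGGTTCCTGAAacg
HSPA8 far element, chr11:123062346-123062374: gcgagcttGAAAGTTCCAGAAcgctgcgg
HSPA8 near element, chr11:123062171-123062199: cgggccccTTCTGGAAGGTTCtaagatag
The match of CHORDC1 is 3 overlapping elements and begins 60 bases before the RefSeq start, and those of HSPA8 begin 230 and 55 bases before it. The windows of HSPA1A, HSPA1B and DNAJB1 hold no such match in the table used.

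Most genes of the integrated stress response were higher in V82G. Of 37 tested, 25 were higher in V82G, 1 was lower and 11 did not pass, with a median log2 fold change of 0.59 beside 0.00 for all genes, and 10 were at least 2-fold higher. ATF3, a stress-induced transcription factor downstream of ATF4, reached 340.1, 291 and 359 CPM in V82G libraries, against 70.3, 73 and 63.6 CPM in GFP libraries (log2 fold change 2.26, SE 0.08, adjusted p = 2.3e-24). All V82G libraries lay above all GFP libraries, at 4.78 times the level. PPP1R15A (GADD34), the phosphatase subunit that reverses the phosphorylation of eIF2, had 95.9, 84.6 and 90.5 CPM in V82G and 37.2, 34.8 and 35 CPM in GFP (log2 fold change 1.34, SE 0.08, adjusted p = 1.5e-16). CTH, which makes cysteine from cystathionine, rose by 1.25 and SESN2, a sestrin that restrains mTORC1 when leucine is short, by 1.17 on the log2 scale (adjusted p = 5.9e-16 and 2.1e-15). CHAC1, a glutathione-degrading enzyme and a classical ATF4 target, was named after its value was seen and stood at 21.4, 21.9 and 22.7 CPM in V82G, against 15.5, 14.4 and 11.5 CPM in GFP (log2 fold change 0.66, SE 0.12, adjusted p = 1.7e-05). The member that fell was SLC7A11, the cystine importer, at 139, 158 and 149 CPM in V82G and 212, 225 and 188 CPM in GFP (log2 fold change -0.49, SE 0.07, adjusted p = 7.1e-07).

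The response element to which ATF4 binds with a C/EBP partner was searched as TGATGNAA on both strands and occurs in 3.14% of the promoter windows. Of 250 tested genes that have it, 48 were higher, 61 lower and 141 did not pass, beside 20.0% higher and 19.8% lower of all genes tested. A match was found in 6 of the 29 stress genes with a listed promoter. The stretches of ATF3 and CHAC1 are shown because both genes rose. Both lie on the plus strand of GRCh38.p14, 191 and 209 bases before the start used for the window, and the capitals mark the match. ATF3 has 2 listed promoter windows, and the window shown was picked because it holds a match.
ATF3, chr1:212565205-212565234: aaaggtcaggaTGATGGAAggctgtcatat
CHAC1, chr15:40953251-40953280: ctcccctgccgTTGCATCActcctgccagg

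Neighbouring branches of the stress response were mixed. Aminoacyl-tRNA synthetases, several of which are ATF4 targets, split evenly, with 6 higher and 6 lower of 20 (median -0.04). CARS (cysteinyl) rose by 0.54 and EPRS (glutamyl-prolyl) fell by 0.40 on the log2 scale, and AARS (alanyl), an ATF4 target, fell to 283 ± 9.48 CPM in V82G, against 354 ± 10.6 CPM in GFP (SD, n = 3 each). Of 25 genes of the unfolded protein response of the endoplasmic reticulum, 8 were higher (32.0%) and 5 lower (20.0%), with a median of 0.10, and the 5 became 3 without V82G replicate 3. HERPUD1, a part of the degradation machinery of that organelle, rose by 0.58, XBP1, its transcription factor, by 0.51 and MANF, a secreted protein of the same organelle, by 0.53 (log2, SE 0.06 to 0.07). HMOX1, the haem-degrading enzyme and a target of the oxidative stress factor NRF2, had 119, 108 and 114 CPM in V82G and 71.5, 49.5 and 51.5 CPM in GFP (log2 fold change 0.98, SE 0.09, adjusted p = 3.9e-11). The NRF2 list as a whole had 5 higher and 5 lower of 22 (22.7% each), beside 20.0% and 19.8% of all genes. It had 3 higher without GFP replicate 1, GFP replicate 2, V82G replicate 1 or V82G replicate 3. SLC7A11 is counted both in the NRF2 list and among the stress response genes.

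Most of the AP-1 genes tested were higher in V82G. FOS, the AP-1 subunit that appears within minutes of growth factor or stress signals, had 27.3, 25.7 and 29.6 CPM in V82G libraries, against 2.19, 2.07 and 2.32 CPM in GFP libraries, a 12.5-fold difference (log2 fold change 3.64, SE 0.17, adjusted p = 4.2e-20). Of 13 AP-1 genes 9 were higher and 4 did not pass, with a median of 0.69. JUN, the partner of FOS, stood at 305 ± 14.2 CPM in V82G and 175 ± 16.3 CPM in GFP (SD, n = 3 each), a log2 fold change of 0.80 (adjusted p = 2.1e-12). The small MAF protein MAFF rose by 1.96 and FOSL2, a FOS relative, by 1.25 (log2, SE 0.23 and 0.17). In a wider list of 24 immediate early genes 12 were higher and 3 lower, among the rises GADD45B, a stress sensor at 15.5 ± 1.02 CPM in V82G and 5.22 ± 1.59 CPM in GFP, NR4A1, an orphan nuclear receptor, and IER2; the 3 falls became 0 without V82G replicate 1.

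Dual-specificity phosphatases, which switch off the MAP kinases that induce FOS, were higher in 9 of 11 cases, with none lower at this threshold, a median of 0.87 and 4 at least 2-fold up. DUSP1 reached 95.5, 85.6 and 103 CPM in V82G libraries, against 23.4, 22.3 and 28 CPM in GFP libraries (log2 fold change 1.95, SE 0.09, adjusted p = 5.6e-20), and the groups did not overlap. DUSP8, a phosphatase of JNK and p38, had 24, 22.7 and 21.9 CPM in V82G and 8.07, 11 and 12 CPM in GFP (log2 fold change 1.15, SE 0.16, adjusted p = 2.0e-07). DUSP1 is shown with its promoter because it has the cyclic AMP response element TGACGTCA, a site of CREB and ATF family factors that reads the same on both strands, 125 bases before its start. The element occurs in 1.65% of promoter windows, and of 365 tested genes that have it 115 were higher, 68 lower and 182 did not pass. Beside this, 20.0% of all genes tested were higher and 19.8% lower. The sequence is from RefSeq (GRCh38.p14, minus strand, chr5:172771196-172771445).
DUSP1 promoter: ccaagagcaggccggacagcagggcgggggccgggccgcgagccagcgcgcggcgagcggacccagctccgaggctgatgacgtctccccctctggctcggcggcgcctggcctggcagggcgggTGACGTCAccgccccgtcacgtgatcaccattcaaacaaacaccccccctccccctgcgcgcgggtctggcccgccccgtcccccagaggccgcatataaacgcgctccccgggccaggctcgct

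Of 28 p53 targets 9 were higher (32.1%) and 3 lower (10.7%), with a median of 0.11, beside 20.0% higher and 19.8% lower among all genes tested. SESN2 is counted both here and among the stress response genes. Among the members that rose were the polo-like kinases PLK3 (9.32, 10.1 and 9.66 CPM in V82G, against 1.89, 2.82 and 2.1 CPM in GFP; log2 fold change 2.08, SE 0.20, adjusted p = 4.3e-11) and PLK2 (1.13 on the log2 scale); HEK293T cells carry the SV40 large T antigen, which binds p53. Of 18 NF-kB and cytokine genes 7 were higher (38.9%) and none lower at this threshold (median 0.26), with NFKBIE, an inhibitor of NF-kB, up by 1.07 and RELB, an NF-kB subunit, by 1.05. Interferon-stimulated genes, which plasmid DNA can induce in competent cells, showed no shared direction: 5 of 26 were higher (19.2%), 3 lower (11.5%) and 18 did not pass. The 5 became 3 without GFP replicate 1, GFP replicate 3 or V82G replicate 2, and the 3 became 1 without GFP replicate 3. DDX58 (RIG-I), a sensor of viral RNA, was higher at 9.57 ± 1.68 CPM in V82G and 5.77 ± 0.384 CPM in GFP, and IRF3, which turns on interferon genes, rose by 0.44 (log2, adjusted p = 1.6e-04).

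Several noncoding host transcripts and splicing kinases were among the clearest rises at moderate levels. SNHG15, a host gene of a small nucleolar RNA whose spliced RNA is unstable, had 124, 119 and 123 CPM in V82G libraries, against 37.9, 39.5 and 34.5 CPM in GFP libraries (log2 fold change 1.71, SE 0.08, adjusted p = 3.2e-19), 3.27-fold higher with no overlap. SNHG17, SNHG12 and GAS5 rose by 1.49, 1.11 and 0.72 on the log2 scale; GAS5 is a known substrate of nonsense-mediated decay. Of 21 small nucleolar RNA host genes 9 were higher and 1 lower, but the median was 0.10. Of 20 factors and known targets of nonsense-mediated decay 9 were higher and 1 lower (median 0.19). SNHG15, SNHG12 and GAS5 are counted in both lists, so the 2 counts are not separate. CLK1, a kinase that phosphorylates SR splicing proteins and whose transcript is spliced from a stored form under stress, stood at 84.4, 94.4 and 91.1 CPM in V82G and 46, 39.7 and 35.4 CPM in GFP (log2 fold change 1.15, SE 0.10, adjusted p = 4.2e-12). CLK4 and CLK3 rose by 0.96 and 0.75 and TRA2B, a splicing activator, by 0.53; of 20 SR and CLK genes 10 were higher and 2 lower (median 0.21). Reads over SNHG12, GAS5 and their antisense or nested neighbours cannot be divided, because the strand setting of the counting is not given.

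**Figure D3:**
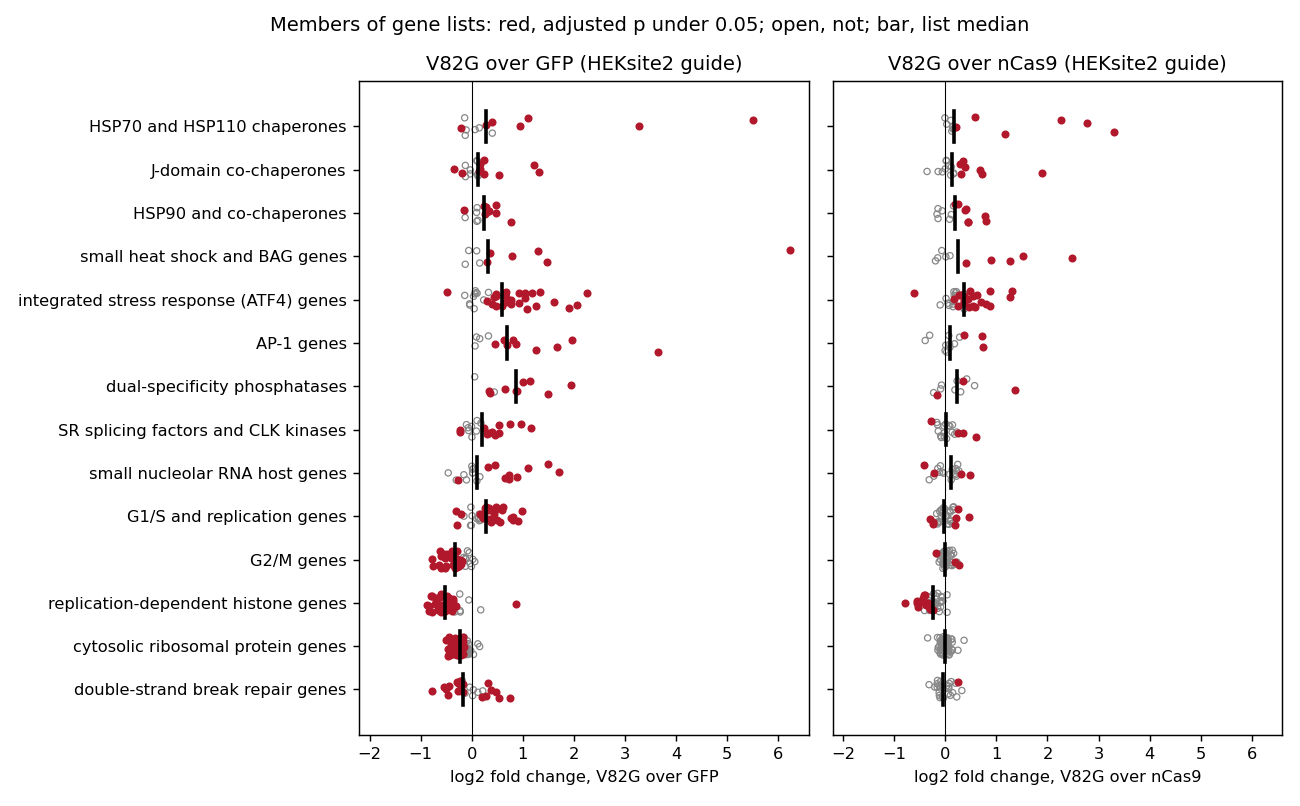
Each point is a tested member of 1 of 14 gene lists, with the log2 fold change of V82G over GFP in the left panel and of V82G over nCas9 in the right, red where the adjusted p is under 0.05 and open where it is not; the bar is the list median. The medians of the heat shock and stress lists lie right of 0 in both panels, while the medians of G1/S, G2/M and ribosomal protein genes lie near 0 against nCas9.

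Genes of the cell cycle shifted in opposite directions by phase. Of 37 G1/S and replication genes 23 were higher and 3 lower (median 0.27), and of 40 G2/M genes 30 were lower and none higher at this threshold (median -0.32). E2F1, the transcription factor that starts S phase, had 85, 84.9 and 85.2 CPM in V82G libraries, against 44.6, 41.8 and 42.9 CPM in GFP libraries (log2 fold change 0.98, SE 0.06, adjusted p = 7.5e-16). The V82G libraries were within 1 CPM of each other and 1.97-fold above GFP. MCM5, a subunit of the replicative helicase, CDC6, which loads it, and CCNE1, the cyclin of the G1/S transition, rose by 0.80, 0.77 and 0.90 (log2, SE 0.06 to 0.08). TOP2A, the topoisomerase of mitotic chromosomes, fell to 686, 718 and 701 CPM in V82G libraries, against 1145, 1227 and 1183 CPM in GFP libraries (log2 fold change -0.76, SE 0.06, adjusted p = 2.2e-12). DLGAP5, a spindle assembly factor, KIF20A, a kinesin of cytokinesis, and KIF11, the kinesin that separates spindle poles, fell by 0.78, 0.62 and 0.60.

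Replication-dependent histone genes, whose mature transcripts have no poly(A) tail and which libraries from total RNA can hold, were lower: 32 of 39 tested fell and 1 rose, with a median of -0.52. HIST1H2BN had 67.3, 82 and 72.2 CPM in V82G and 119, 136 and 152 CPM in GFP (log2 fold change -0.88, SE 0.09, adjusted p = 1.0e-09), and HIST2H2BF had 232, 255 and 248 CPM in V82G and 369, 420.2 and 471 CPM in GFP (-0.78, SE 0.09). The gene that went the other way was HIST1H3D, a low one at 3.51, 3.68 and 4.14 CPM in V82G and 2.09, 1.88 and 2.21 CPM in GFP (log2 fold change 0.87, SE 0.28, adjusted p = 0.011). Histone genes are near copies of each other, so the value of any single one is less certain than the direction of the list. G1/S genes and histone genes, both of which are active in S phase, moved in opposite directions.

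Genes that repair double-strand breaks tended lower, with 12 of 27 lower and 7 higher (median -0.16). In nCas9 over the same GFP libraries 10 were lower and 6 higher (median -0.11). The direct contrast of V82G over nCas9 gave 1 higher and 0 lower, beside 5.02% and 5.32% of all genes. PRKDC, the catalytic subunit of the DNA-dependent protein kinase of end joining and a long, highly expressed gene, fell to 893, 901 and 1035 CPM in V82G libraries, against 1427, 1709 and 1719.9 CPM in GFP libraries (log2 fold change -0.78, SE 0.09, adjusted p = 3.3e-09). ATR, the kinase that senses stalled forks, BRCA2, a factor of homologous recombination, and NBN, a part of the MRN complex at break ends, fell by 0.54, 0.50 and 0.47. Base excision repair, which removes deaminated bases, showed 8 higher and 3 lower of 22 (median 0.14): the scaffold XRCC1 was higher at 51.3 ± 1.23 CPM in V82G and 37.3 ± 1.54 CPM in GFP, and the strand break sensor PARP1 was lower at 994 ± 53.8 CPM in V82G and 1369.8 ± 47.7 CPM in GFP (SD, n = 3 each). In nCas9 over GFP this list also had 8 higher and 3 lower (median 0.18), and V82G over nCas9 gave 3 and 2. Of 11 mismatch repair genes 1 was higher (9.09%) and 3 lower (27.3%), with a median of -0.03, beside 20.0% and 19.8% of all genes tested. The rise was EXO1, the exonuclease of that pathway, by 0.70 (adjusted p = 3.5e-11). Of 12 tested endogenous deaminases 2 were higher and 3 lower, which became 1 lower without GFP replicate 2 or V82G replicate 2 and 1 higher without V82G replicate 1. ADAR, the main adenosine deaminase acting on RNA, fell by 0.32 and its relative ADARB1 rose by 0.37 on the log2 scale (adjusted p = 1.6e-05 and 0.0019).

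Most cytosolic ribosomal protein genes were lower by small amounts. Of 77 cytosolic ribosomal protein genes 47 were lower, none higher at this threshold and 30 did not pass, with a median of -0.23. RPL3 had 1279, 1293 and 1237 CPM in V82G and 1667, 1695 and 1694 CPM in GFP (log2 fold change -0.41, SE 0.06, adjusted p = 2.3e-07), and RPL7A had 1261, 1291 and 1195 CPM in V82G and 1804, 1731 and 1806 CPM in GFP (-0.51, SE 0.07). Mitochondrial ribosomal protein genes did not follow, with 20 higher and 7 lower of 69 (median 0.08), and 12 of 37 genes of respiratory complex I were lower with 1 higher (median -0.13). Of 34 initiation factor genes 9 were higher (26.5%) and 13 lower (38.2%), beside 20.0% and 19.8% of all genes. EIF5, which releases eIF2 after start codon recognition, rose to 767, 696 and 739 CPM in V82G libraries, against 483, 466 and 455 CPM in GFP libraries (log2 fold change 0.65, SE 0.06, adjusted p = 4.2e-12), EIF4A2, a helicase, rose by 0.56, and EIF2S3, the gamma subunit of eIF2, and the scaffold EIF4G3 fell by 0.40 and 0.54.

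Glycolysis genes were lower in 10 of 19 cases and higher in 3 (median -0.16), or 1 without GFP replicate 1. LDHA, lactate dehydrogenase, fell to 577 ± 32.1 CPM in V82G, against 879 ± 32.9 CPM in GFP, and GAPDH, often used as a reference gene, to 1905 ± 75.2 CPM in V82G, against 2499 ± 37 CPM in GFP (SD, n = 3 each). ENO2, the neuronal enolase, went the other way by 0.84 on the log2 scale. Of 25 cholesterol synthesis genes 11 were lower and 1 higher (median -0.08), and of 19 fatty acid synthesis genes 8 were lower and none higher at this threshold (median -0.09). Proteasome subunits had 9 higher and 3 lower of 31 (median 0.07), and 1 lower without V82G replicate 3.

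Among the largest falls were several transcription factors and zinc finger genes. ETV1, an ETS family transcription factor (chr7:13891228-13991425, minus strand), fell to 2.08, 2.42 and 3.11 CPM in V82G libraries, against 11.3, 12.6 and 10.6 CPM in GFP libraries (log2 fold change -2.18, SE 0.21, adjusted p = 9.9e-11). ZNF608, a zinc finger gene (chr5:124636913-124748807, minus strand), had 13.5, 13.2 and 13.2 CPM in V82G and 41.6, 47 and 44 CPM in GFP (log2 fold change -1.73, SE 0.10, adjusted p = 5.9e-17). For both genes every V82G library lay below every GFP library. SEMA3C, a secreted semaphorin, stood at 31.1, 33.9 and 34.8 CPM in V82G and 70.4, 81.6 and 90.4 CPM in GFP, and ARID5B, a chromatin cofactor, at 26.9, 25.8 and 29.1 CPM in V82G and 59, 64.8 and 64.4 CPM in GFP; neither gene's groups overlapped, and their log2 fold changes were -1.28 and -1.20 (SE 0.08 and 0.09). SCN9A, a sodium channel, ZNF493, a zinc finger gene, and LUM, lumican, a proteoglycan of connective tissue, fell by 1.31, 1.32 and 1.22 on the log2 scale. CTSO, a cysteine protease, and the noncoding LINC00958 fell by 1.21 and 1.23 at under 6 CPM in every library of either group. MYBPC2, a muscle gene, had 7 counts in V82G and 29 in GFP, reached its mean of 2.45 in log2 CPM through libraries of other groups, and its adjusted p was 0.055 without GFP replicate 2. ZNF503 and the transcript ZNF503-AS2, which overlap on opposite strands of chromosome 10 (from 75397830 to 75401906 and from 75401519 to 75408982), fell by 1.20 and 1.28; which of them the reads of the overlap belong to is uncertain.

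Several of the largest rises were of weakly expressed genes outside the stress lists. PNLDC1, a relative of the poly(A) nuclease PARN that trims piRNAs in mice, had 12, 14.2 and 15 CPM in V82G and 1.1, 2.35 and 1.88 CPM in GFP (log2 fold change 2.93, SE 0.24, adjusted p = 9.0e-13). GIPC2, TNN, SH2D3C, AMER2 and LYG1 rose by between 2.41 and 3.24 on the log2 scale, all under 6 CPM in every V82G library; GIPC2 overlaps DNAJB4 on the same strand. Among Eph receptors, which read ephrins on touching cells, EPHA7 fell to 49.8, 50.2 and 51.6 CPM in V82G libraries, against 93.9, 88.7 and 92.3 CPM in GFP libraries (log2 fold change -0.86, SE 0.06, adjusted p = 1.2e-14), EPHA4 and EPHA3 fell by 0.84 and 0.51, and EPHB3 rose by 1.07. Over 17 ephrin and Eph receptor genes 3 were higher (17.6%) and 4 lower (23.5%), beside 20.0% and 19.8% of all genes. Of 14 genes of insulin-like growth factor signalling 7 were lower and none higher at this threshold (median -0.16), among them IRS4, the insulin receptor substrate typical of HEK293 cells, at 288 ± 32.7 CPM in V82G and 435 ± 23.9 CPM in GFP, and the RNA-binding protein IGF2BP3, down by 0.48; the 7 became 4 without GFP replicate 2, GFP replicate 3 or V82G replicate 1.

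Single genes with a special place in the design were measured too. RNF2, the Polycomb ubiquitin ligase that is the target of the study's other guide, was 66.8, 68.6 and 66.4 CPM in V82G with the HEKsite2 guide and 73.1, 76.4 and 87.2 CPM in GFP (log2 fold change -0.23, SE 0.07, adjusted p = 0.012); without GFP replicate 3, the highest of the GFP libraries, its adjusted p was 0.13. EZH2, the methyltransferase of the other Polycomb complex, rose by 0.57, and of 28 Polycomb genes 9 were higher and 7 lower. LIN28B, an RNA-binding protein and 1 of the HEK293 markers, fell by 0.57 (adjusted p = 3.0e-10). CSH2, a placental lactogen gene of the growth hormone cluster, whose members are near copies of each other, had 1821, 1386 and 1906 CPM in V82G and 3151, 3275 and 3029 CPM in GFP (log2 fold change -0.89, SE 0.09, adjusted p = 8.7e-10), so its source gene is uncertain. Among the marker lists of other tissues 1 liver gene, TF (transferrin), was higher at 0.548, 0.526 and 1.5 CPM in V82G and 0.0996, 0.376 and 0.11 CPM in GFP, 1 blood gene, CD14, was higher by 1.07, and the connective tissue genes LUM, COL3A1 and SPARC were lower, where COL3A1 fell by 1.02; TF rested on V82G replicate 3 and CD14 lost its call without any of 4 single libraries. The part of these markers in the other results was not tested.

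**Figure D4:**
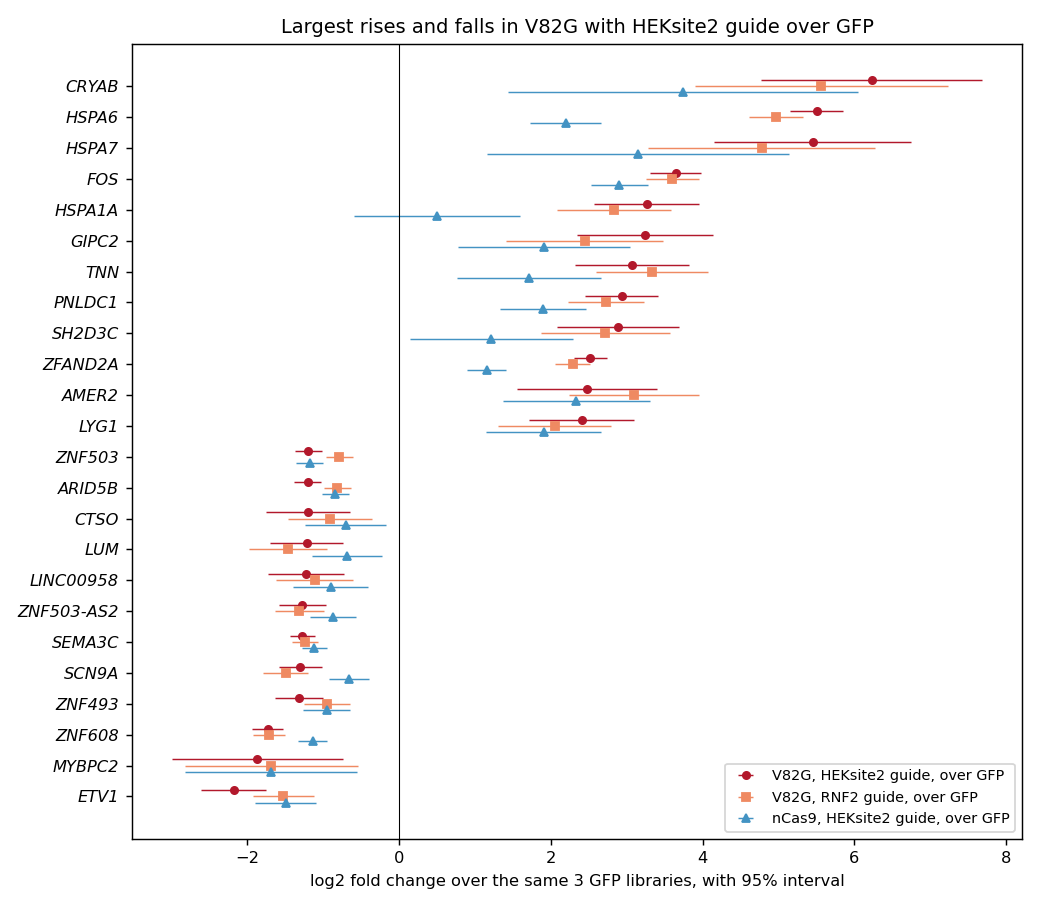
Log2 fold changes with 95% intervals over the same 3 GFP libraries for the 12 largest rises and 12 largest falls of V82G with the HEKsite2 guide, for V82G with the HEKsite2 guide, V82G with the RNF2 guide and nCas9 with the HEKsite2 guide. HSPA6 lies at 5.50, 4.96 and 2.19 in the 3 comparisons, HSPA1A in nCas9 has an interval that spans 0, and the falls lie left of 0 in all 3; since the GFP libraries are shared, the comparisons are not independent.

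V82G was also set against nCas9 with the same guide, a contrast in which both groups carry a Cas9 nickase and V82G adds the deaminase. HSPA6 and most of the stress response genes tested were higher in V82G. At an adjusted p under 0.05, 1511 genes differed (10.3%), 733 higher (5.02%) and 778 lower (5.32%) in V82G, and 51 of them (0.349%) were at least 2-fold higher and 23 (0.157%) at least 2-fold lower. HSPA6 was 3.31 higher on the log2 scale (SE 0.14, adjusted p = 2.2e-21), with 16.1, 15.1 and 17.6 CPM in nCas9 libraries. Of 13 HSP70 and HSP110 genes 6 were higher and none lower, of 18 J-domain genes 7 and 0, of 15 HSP90 genes 8 and 0, of 10 small heat shock and BAG genes 5 and 0, of 10 chaperonins 4 and 0, and of 37 stress response genes 22 and 1. The number of genes called fell to 858 without V82G replicate 3, to 943 without nCas9 replicate 2 and to 995 without nCas9 replicate 1.

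Several chaperones lay lower in nCas9 than in GFP, HSPA1B and DNAJB1 among them. In nCas9 against GFP, which shares the 3 GFP libraries with the main comparison, 5605 genes differed (38.4%), 2864 higher (19.6%) and 2741 lower (18.8%). HSPA1B averaged 1364 ± 61.4 CPM in V82G, 282 ± 4.88 CPM in nCas9 and 636 ± 8.06 CPM in GFP (SD, n = 3 each), a log2 fold change of 2.27 for V82G over nCas9 (adjusted p = 3.3e-28) and of -1.17 for nCas9 over GFP (adjusted p = 4.7e-18). DNAJB1 averaged 734 CPM in V82G, 197 CPM in nCas9 and 293 CPM in GFP. Of the HSP70 and HSP110 genes 2 were higher and 6 lower in nCas9 than in GFP. The other chaperone lists were mixed. Of 18 J-domain genes 2 were higher and 6 lower, of 10 chaperonins 0 and 4, and of 15 HSP90 genes 3 and 3. Of 10 small heat shock and BAG genes 4 were higher and 1 lower. The highest of these was CRYAB, hardly detected in GFP, at 3.74 on the log2 scale. HSPA6 was higher in nCas9 than in GFP, by 2.19 (adjusted p = 8.4e-10), and ATF3 by 1.00. Of 37 stress response genes 17 were higher and 8 lower in nCas9 than in GFP (median 0.22). AP-1 genes gave 8 higher and 0 lower of 13 there, and dual-specificity phosphatases 9 and 0 of 11.

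For the G2/M and ribosomal lists the values against GFP stood close together in V82G and nCas9, and the direct contrast called few members. G2/M genes had medians of -0.32 in V82G over GFP and -0.36 in nCas9 over GFP, and V82G over nCas9 gave 2 higher and 1 lower of 40 with a median of 0.00. None of the 77 ribosomal protein genes passed it in either direction, beside 10.3% of all genes. G1/S genes gave 4 higher (10.8%) and 3 lower (8.11%) of 37 in the direct contrast, beside 5.02% and 5.32% of all genes. E2F1 differed from nCas9 by -0.15 (log2, 95% interval -0.27 to -0.03, adjusted p = 0.092) and TOP2A by -0.05 (-0.18 to 0.08). For AP-1 genes the direct contrast gave 3 higher of 13, FOS among them (0.74, adjusted p = 4.0e-05), while MAFF differed by 0.01 (-0.37 to 0.38). DUSP1 was 1.36 higher than in nCas9 (log2, adjusted p = 6.9e-15), and of the 11 phosphatases 2 were higher and 1 lower. Histone genes were 13 lower and 0 higher of 39 in V82G than in nCas9. In nCas9 over GFP 9 of 21 small nucleolar RNA host genes were higher and 0 lower. Of 20 factors and targets of nonsense-mediated decay 11 were higher and 1 lower there, and of 20 SR and CLK genes 10 and 1. The direct contrast of V82G over nCas9 gave 2 higher and 2 lower, 1 and 2, and 3 and 1 in these 3 lists.

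A few genes had their extreme value in nCas9 and not in V82G. ANKRD1, a target of YAP, had 14.6, 11.5 and 12.2 CPM in V82G, 1.58, 0.561 and 1.76 CPM in nCas9 and 12.6, 16.3 and 15.8 CPM in GFP, a log2 fold change of 3.24 over nCas9 (adjusted p = 5.8e-14) and of -0.22 over GFP (adjusted p = 0.20). EFNA3, an ephrin, had 7.79, 9.16 and 7.94 CPM in V82G, 23, 24.5 and 22.9 CPM in nCas9 and 7.77, 11 and 10.4 CPM in GFP. TMC8 was higher in V82G than in GFP and higher still in nCas9, with 16.3, 7.47 and 8.05 CPM in V82G, where replicate 1 stood apart, 28.3, 28 and 27.2 CPM in nCas9 and 3.39, 3.48 and 3.42 CPM in GFP. ZNF132, a zinc finger gene, was lower than in nCas9 by 1.62 on the log2 scale.

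With the RNF2 guide in place of the HEKsite2 guide V82G also had HSPA6, DNAJB1 and ATF3 above GFP. In that comparison, with the same GFP libraries, 6863 genes differed (47.0%), 3428 higher and 3435 lower (23.5% each). HSPA6 averaged 111 ± 5.7 CPM with the RNF2 guide, DNAJB1 724 ± 24.3 CPM and ATF3 262 ± 10.0 CPM (SD, n = 3 each), and 25 of 37 stress response genes were higher and 2 lower. Between the guides in V82G 1452 genes differed (9.94%), 769 higher with HEKsite2 (5.26%) and 683 lower (4.67%), 8 of them (0.0547%) at least 2-fold higher and 20 (0.137%) at least 2-fold lower; this count ran from 496 without HEKsite2 replicate 2 and 628 without RNF2 replicate 1 to 1223 without HEKsite2 replicate 3, and it was 785, 796 and 951 without RNF2 replicate 2, RNF2 replicate 3 and HEKsite2 replicate 1. Ribosomal protein genes were part of it: 75 of 77 were lower than in GFP with the RNF2 guide, and 42 of 77 were higher with HEKsite2 than with RNF2 (median 0.25). RNF2 itself was 67.3 ± 1.19 CPM with the HEKsite2 guide and 47.9 ± 2.73 CPM with its own guide. ALDH1A1, a retinal dehydrogenase, was 1.42 higher with HEKsite2 than with RNF2 (log2, adjusted p = 0.015), at under 3 CPM.

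Against ABEmax with the same guide V82G differed in fewer genes. There 511 genes passed (3.5%), 165 higher (1.13%) and 346 lower (2.37%) in V82G, and the count was 192 without V82G replicate 2, 237 without ABEmax replicate 1 and 270 without ABEmax replicate 3. The difference reached the stress response: 14 of 37 genes were lower in V82G and none higher, with a median of -0.22. ATF3 averaged 330.1 ± 35 CPM in V82G and 436 ± 10.1 CPM in ABEmax (log2 fold change -0.40, SE 0.07, adjusted p = 3.1e-04), SESN2 246 ± 11.7 CPM in V82G and 383 ± 20.5 CPM in ABEmax, and HSPA6 162 ± 10.6 CPM in V82G and 237 ± 6.26 CPM in ABEmax (log2 fold change -0.55, SE 0.11, adjusted p = 0.0011). BAG3 was also lower in V82G, by 0.54 on the log2 scale, while HSPA1B differed by 0.07 (95% interval -0.05 to 0.19) and DNAJB1 by -0.23 (-0.38 to -0.07, adjusted p = 0.096). At least 2-fold, 7 genes were higher (0.0479%) and 63 lower (0.431%) in V82G. Among the largest falls was NRP2, a semaphorin receptor, with 11.3, 15.6 and 13.5 CPM in V82G and 574, 517 and 518 CPM in ABEmax. IFIT1, an interferon-induced gene, was 0.94 higher in V82G than in ABEmax (log2, adjusted p = 0.029).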

How the data were processed

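The deposited file holds raw read counts per gene, made by the authors from total RNA and a stranded total RNA kit, per the labels. The submitters' processing notes name STAR, Picard 2.7 and GATK 3.8.1 with build GRCh38 (hg38), without roles; the sources used here do not name the program that counted reads, its strand setting or its annotation. Columns were matched by construct, guide and replicate number. Of 26475 genes, 14613 passed edgeR's filterByExpr. All 33 libraries, in 11 groups of 3, were fitted together (22 residual degrees of freedom) after TMM scaling, and groups were compared by the two-sided quasi-likelihood test of edgeR 4.0.16 (R 4.3.3, limma 3.58.1) with Benjamini-Hochberg adjustment; the threshold is an adjusted p of 0.05. CPM use TMM-scaled library sizes. Counting intervals and depth cover counting error only. The procedure was tested on simulated data. The alternatives tried were DESeq2 1.42.0, RLE scaling, testing genes of low count too, a block for replicate number, a fit of the compared groups alone, and each library left out in turn.

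The comparisons, gene lists and named genes were chosen with earlier results of these data known. By rule the text names the 12 largest rises and falls that passed the test, had a gene symbol, averaged 1 or more in log2 CPM over all 33 libraries and had non-overlapping groups (3 and 3 elsewhere), up to 4 called members per list by smallest p, the highest or lowest member, and RNF2; CHAC1, HSPA8 with its promoter, CSH2 and the promoters shown were chosen after their values were seen. In the other comparisons not every gene under the rule is named. Positions are from GENCODE 29 and promoters, 250 bases before the start, from RefSeq. Tables were made with pandas 2.3.3 in Python 3.11.15, and plots with matplotlib 3.10.9.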

Additional observations from a re-analysis of the deposited data

Results flagged for a closer look

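These genes differed between the HEKsite2 and RNF2 guides in V82G, and the values are the log2 fold change over GFP with HEKsite2 minus that with RNF2. The GFP libraries cancel in this difference, which was tested directly with edgeR's quasi-likelihood test over all genes. Among chaperones and their helpers the difference was 0.54 for HSPA6 (adjusted p = 0.0018), 0.21 for HSPA1B, 0.33 for HSPA8, 0.43 for HSPB1, 0.65 for HSPB8 and 0.48 for AHSA1 (adjusted p = 2.1e-05). Among stress and signalling genes it was 0.33 for ATF3, -0.25 for CTH, 0.28 for AARS, -0.22 for JUN, 0.52 for DUSP1 (adjusted p = 1.1e-04), -0.47 for DUSP8, 0.45 for HMOX1, 0.31 for IRF3 and 0.82 for IFIT1. Among cell cycle, repair and ribosome genes it was -0.29 for E2F1, 0.18 for KIF20A, -0.29 for EXO1, 0.29 for RPL7A and -0.23 for ADAR. RNF2, the gene the second guide targets, differed by 0.49 (adjusted p = 1.3e-04). The others were ZNF503 at -0.41, ARID5B at -0.39, CSH2 at -0.33, SPARC at 0.37 and, with the largest values, ANKRD1 at 1.13 (adjusted p = 3.8e-05) and ALDH1A1 at 1.42.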

How the results depend on the processing

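The number of genes that differed between V82G and GFP was 5815, and it was 5819 with RLE scaling, 5611 without the filter on low counts, 5187 with DESeq2, 6131 with only the compared groups in the fit and 4826 to 5239 when a library was left out. Of 2384 values of named genes under an alternative, 2326 kept their direction and side of the threshold, 51 lost their call, 7 gained one and 0 reversed. A fit with a replicate block called 5978 genes, of which 5796 were also called without it. Deviations of same-numbered V82G and GFP libraries from their group means correlated by 0.148, 0.0648 and 0.0215 over 12711 genes. For differently numbered libraries the correlations ran from -0.177 to 0.122. So few correlations cannot decide whether the replicate numbers pair the libraries. V82G against nCas9 gave 1511 genes, and 858 to 1197 when a library was left out. V82G between the HEKsite2 and RNF2 guides gave 1452 genes, 2693 with only the compared groups in the fit, and 496 to 1223 when a library was left out. V82G against ABEmax gave 511 genes, 788 with only the compared groups and 192 to 379 when a library was left out; the cause was not tested. Among named marker genes, CD14 lost its call with DESeq2 and without GFP replicate 1 or 2 or V82G replicate 2 or 3, SPARC without GFP replicate 3 or V82G replicate 1, and TF without V82G replicate 3. The replicate block moved no count of genes between groups by over 1.5 times. Depth limits weakly expressed genes such as CRYAB, with 1 read over the GFP libraries.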

Other observations

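Changes of V82G over GFP varied with gene length. RefSeq lengths were matched for 92.2% of tested genes, and 11906 genes averaging 1 or more in log2 CPM over all 33 libraries were ranked by length into 4 equal bins. In the shortest bin, up to 12.8 kb, 25.4% were higher and 14.4% lower in V82G, with a median log2 fold change of 0.06. In the longest bin, from 80.7 kb, 14.1% were higher and 29.1% lower, with a median of -0.08. Single V82G libraries gave medians of 0.08, 0.05 and 0.03 in the shortest bin and -0.10, -0.07 and -0.05 in the longest, so all 3 had the same order. In nCas9 over GFP, with the same GFP libraries, the medians were 0.09 and -0.12, and V82G over nCas9 gave -0.04 and 0.04. V82G with the RNF2 guide gave -0.01 and -0.02 over the same GFP libraries, so its shortest bin was not raised. The cause was not tested.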
